A study of Oryza sativa with 6 samples.

Results

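Auxin response factors (ARFs) are plant transcription factors that bind auxin response elements in the promoters of auxin-regulated genes. At low auxin many of them, though not all, are held by Aux/IAA repressor proteins. Auxin sends these repressors to degradation through receptors of the TIR1 and AFB type. Some ARFs activate and others repress their targets, and the transcripts of several ARFs are themselves cut under the guidance of small RNAs. The values of 4 rice ARF genes are described here, arf1, ARF15, ARF2 and ARF9, each through 1 probe set that was picked by its identifier. They are 4 of 17905 genes that the platform annotation pairs with a probe set of their own, and 4 of the 17 among these with an ARF number.

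Rice of the japonica variety was compared between the wild type, with 3 biological replicates, and the line Epi-df, also with 3. Seedlings were 3 weeks old and grown in artificial soil, and total RNA of each replicate was hybridised to 1 Affymetrix rice genome array. From the literature, Epi-df plants are dwarf and carry an epigenetic allele of the Polycomb gene FIE1. No probe set could be assigned to FIE1, so the line's label was not checked through that gene. The labels give neither the number of plants per replicate nor the organs sampled. Median intensities of the 6 arrays lay between 108.1 and 114.5. Among 7 shoot markers, 3 probe sets covered the leaf genes for the Rubisco small subunit (RBCS), a chlorophyll-binding protein (LHCP) and glycolate oxidase (GLO1). The marker CAB2R shared the probe set of LHCP, and all 3 probe sets passed the filter on low values. Their summed intensity was 51609 to 52866 in wild type and 53535 to 58551 in Epi-df. LHCP was at 15233.7 to 15847.1 and 17779.5 to 19960.2, while RBCS and GLO1 overlapped between the lines. For the 4 of 6 root markers with a probe set, the sum was 1129.9 to 1359 and 1278 to 1568. Of these, the silicon transporter gene LSI1 was at 368.9 to 446.0 and 473.2 to 661.7. PHT1 overlapped, at 683 to 833 and 671 to 911, as did AMT1.2 and LSI2, which did not pass the filter. The sum of the 7 of 9 seed and flower markers with a probe set was 886 to 972.0 and 812.4 to 892.7, where GluA2 and Osc4 were the 2 that passed the filter. Whether these differences play a part in the ARF values was not tested.

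The names need care, since the gene table gives some ARF numbers to more than 1 gene. The gene called arf1 here (LOC4350610) also carries the names ARF23 and OsARF1, and another gene (LOC4327785), also named ARF16, is numbered ARF1 too. ARF2 here (LOC4326957) also carries the name ARF4, and another gene (LOC4325895), also named OsETTIN2, shares the name ARF2. ARF15 (LOC9268260) is also named OsETTIN1, after the Arabidopsis gene ETTIN. ARF9 (LOC4335934) has no other name in the table. The symbol arf can also stand for ADP-ribosylation factor. Of the 4 genes only ARF15 has a name outside this symbol that tells the meanings apart, OsETTIN1. The names of arf1, ARF2 and ARF9 alone do not, and their proteins were not checked.

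None of the 4 genes passed the test between the lines. All 4 averaged lower in Epi-df, ARF9 by the most and ARF15 next, and these were the 2 in which the arrays of the lines did not overlap. The Epi-df mean was 68.9% of the wild type mean for ARF9, 82.8% for ARF15, 92.7% for arf1 and 97.5% for ARF2. Over all 34355 tested probe sets, 0.608% were called, that is, they had an adjusted p under 0.05 together with a 2-fold or larger difference, and 0.434% were called lower in Epi-df. Groups that did not overlap were much more frequent, at 19.6% of tested probe sets, and 9.76% were of this kind and lower in Epi-df. A log2 change below 0 was found for 46.1% of tested probe sets, with a median over all of them of 0.01.

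**Figure D1:**
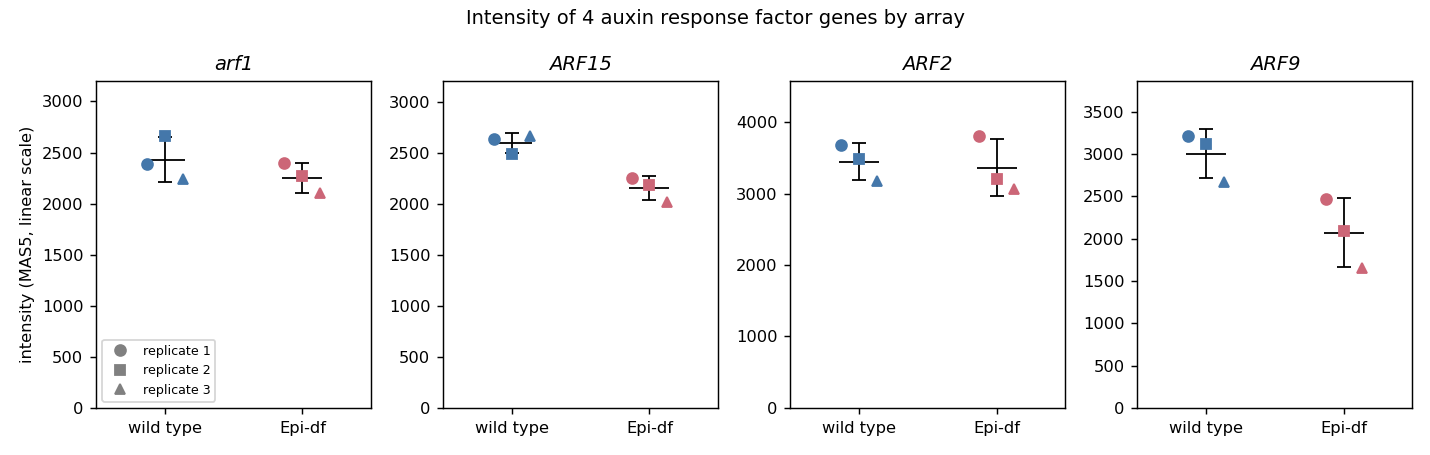
Intensity (MAS5, linear scale, axis from 0) of the 4 ARF genes in each array, with symbols for the replicates and black marks for mean ± SD of 3 arrays, each panel on its own scale because probe sets are not comparable in level. The Epi-df arrays of ARF9 and ARF15 all lie below the wild type arrays, while those of arf1 and ARF2 overlap with them.

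ARF9 had intensities of 3218, 3120.4 and 2670.1 in wild type replicates 1, 2 and 3, and of 2465, 2088 and 1652 in Epi-df replicates 1, 2 and 3. The highest Epi-df array thus lay a little below the lowest wild type array, and the Epi-df arrays were widely spread. The means were 3003 ± 292 and 2068 ± 407 (SD, n = 3 in each group), a coefficient of variation of 9.73% in wild type and 19.7% in Epi-df. On the log2(intensity + 16) scale the change was -0.55 ± 0.15 (SE), with a 95% interval of the ratio of Epi-df to wild type from 0.538 to 0.869. Its limma p was 0.00674 before and 0.131 after Benjamini-Hochberg adjustment over all tested probe sets, so the difference did not pass. Unadjusted p values under 0.05 were found for 14.4% of tested probe sets. A log2 change as low as that of ARF9 or lower was found for 3.1%. In these bulk samples, fewer cells that express a gene and less RNA per cell cannot be told apart.

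ARF15 is named after ETTIN, an Arabidopsis ARF of organ polarity and flower patterning whose transcript is a target of small interfering RNAs. Its intensities were 2642, 2494 and 2675 in the wild type replicates and 2259, 2185 and 2026 in the Epi-df replicates. Arrays within each line were close together, with coefficients of variation of 3.71% and 5.53%, and the lines did not overlap. Its means were 2604 ± 96.6 and 2157 ± 119, and its log2 change of -0.27 ± 0.07 was smaller than that of ARF9. It was found with a narrower 95% interval of the ratio, from 0.735 to 0.935. The limma adjusted p was 0.136, close to that of ARF9, and 7.88% of tested probe sets had a log2 change as low or lower.

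The rice gene arf1 is known as an ARF gene that itself responds early to auxin. Wild type replicates gave intensities of 2385, 2666 and 2237 and Epi-df replicates 2393, 2266 and 2099. The lines overlapped, with Epi-df replicate 1 above the wild type replicates 1 and 3. Means of 2429 ± 218 and 2253 ± 147 gave a difference of -0.11 ± 0.09 on the log2 scale (limma adjusted p = 0.699), and the 95% interval of the ratio, 0.802 to 1.08, includes equal levels. A further probe set of this gene, of the _x_at kind whose probes may also match other transcripts, gave 1302, 1411 and 1201 in wild type and 1234, 1156 and 1040.1 in Epi-df. Only Epi-df replicate 1 lay within the wild type range there, and the difference was -0.19 ± 0.10 (limma adjusted p = 0.457).

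ARF2 had intensities of 3682, 3481 and 3179 in wild type and 3812, 3203 and 3069 in Epi-df. Epi-df replicate 1 was the highest of all 6 arrays and Epi-df replicate 3 the lowest, so the lines overlapped fully. With means of 3448 ± 253 and 3361 ± 396, the log2 change was -0.04 ± 0.10 (limma adjusted p = 0.919), with a ratio between 0.825 and 1.15 at 95% confidence. The other probe set of the gene gave 2209, 1974 and 1816 in wild type and 2142, 1719 and 1629.7 in Epi-df. It had the same order of arrays within each line and a log2 difference of -0.13 ± 0.12 (limma adjusted p = 0.730). Both further probe sets thus had changes of the same sign as those of the rule, and ARF9 and ARF15 had no second one in the annotation.

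Epi-df replicate 3 was the lowest of the 6 arrays for each of the 4 genes. Its median intensity over all non-control probe sets, 114.5, was not low. When this array was left out, the log2 change was -0.40 for ARF9, -0.23 for ARF15, -0.06 for arf1 and 0.02 for ARF2. Leaving out Epi-df replicate 1, the highest Epi-df array of each gene, gave -0.68 for ARF9, -0.30 for ARF15, -0.15 for arf1 and -0.13 for ARF2. No fit without 1 array brought any of the 4 genes past the test, and the lowest limma adjusted p among them was 0.0803, for ARF9 without Epi-df replicate 1. The sign of ARF2 turned in 2 of these fits, the one lacking Epi-df replicate 3 and the one lacking wild type replicate 1 (0.0084). For arf1, the change shrank to -0.04 without wild type replicate 2, its highest array.

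**Figure D2:**
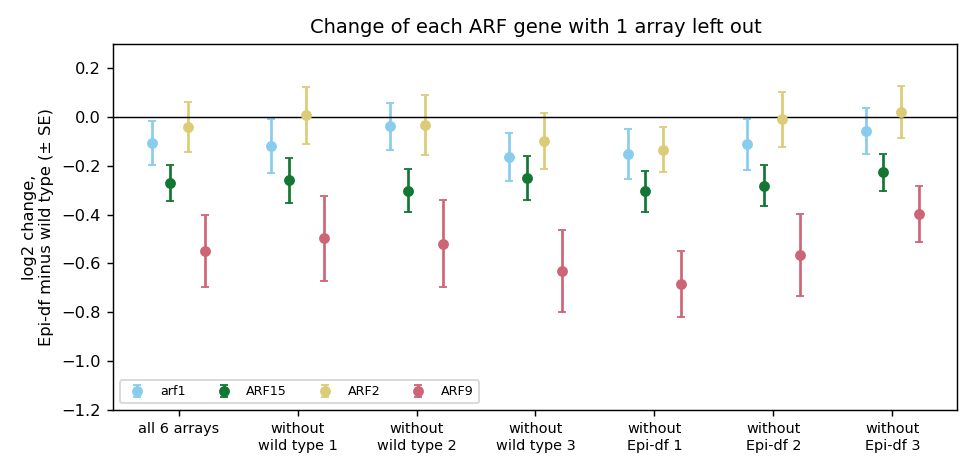
Log2 change (Epi-df minus wild type, of log2(intensity + 16), ± SE) of the 4 ARF genes with all 6 arrays and with each array left out in turn. ARF9 stays between -0.68 and -0.40 and ARF15 between -0.30 and -0.23, while ARF2 lies on both sides of 0.

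The genes were compared with each other through the difference of their log2 values within each array, which cancels a shift common to the array. The 4 genes form 6 pairs, and an exact two-sided permutation test of 3 against 3 arrays cannot give a p below 0.1. Each difference is the change of the first gene minus that of the second. ARF2 against ARF9 gave 0.51, ARF9 having the lower change, and the array values did not overlap: log2 ARF2 minus log2 ARF9 was 0.16 to 0.25 in wild type and 0.61 to 0.89 in Epi-df (exact p = 0.1, 0.2 adjusted over the 6 pairs). For arf1 against ARF9 it was 0.44, ARF9 again having the lower change, and without overlap (exact p = 0.1, adjusted 0.2). ARF15 against ARF2 gave -0.23 without overlap (exact p = 0.1, adjusted 0.2). The other pairs overlapped: ARF15 against ARF9 by 0.28 (exact p = 0.2), arf1 against ARF15 by 0.16 (exact p = 0.4) and arf1 against ARF2 by -0.07 (exact p = 0.5). None of the 6 differences could pass a threshold of 0.05 in this exact test, whatever its size. No other test of the pairs was made.

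Among the wider ARF family, the table names 23 genes with an ARF number, 17 had a probe set, and 16 of these passed the filter on low values, all 4 described genes among them. None of the 16 was called, against 0.608% of all tested probe sets. Of the 12 others, 7 were higher and 5 lower in Epi-df, with a median log2 change of 0.06 and a range from -0.19 to 0.23, so the changes of ARF9 and ARF15 lay below those of all 12. In the 12 others the groups did not overlap in 1 gene, against 19.6% of all tested probe sets. This was ARF3, at 602.7 ± 18.4 in wild type against 529.0 ± 55.8 (-0.19 ± 0.10, limma adjusted p = 0.464). The highest log2 change was that of ARF10 (LOC4336419), at 0.23 ± 0.12 (limma adjusted p = 0.461). The gene named OsETTIN2, the counterpart of ARF15 by name, has 2 probe sets, and the one with the higher mean is given. It had intensities of 704.6 to 722.7 in wild type and 548.4 to 794.1 in Epi-df. Its log2 change was -0.04 ± 0.14, with overlap on both sides. Counted over all tested probe sets of the 12 others, 7 were higher and 6 lower. ARF14 and ARF3 had log2 changes of 0.21 ± 0.12 and -0.19 ± 0.10, and ARF13, the 1 gene left out by the filter, had intensities of 35.2 to 45.4 in wild type and 38.5 to 45.0 in Epi-df.

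**Figure D3:**
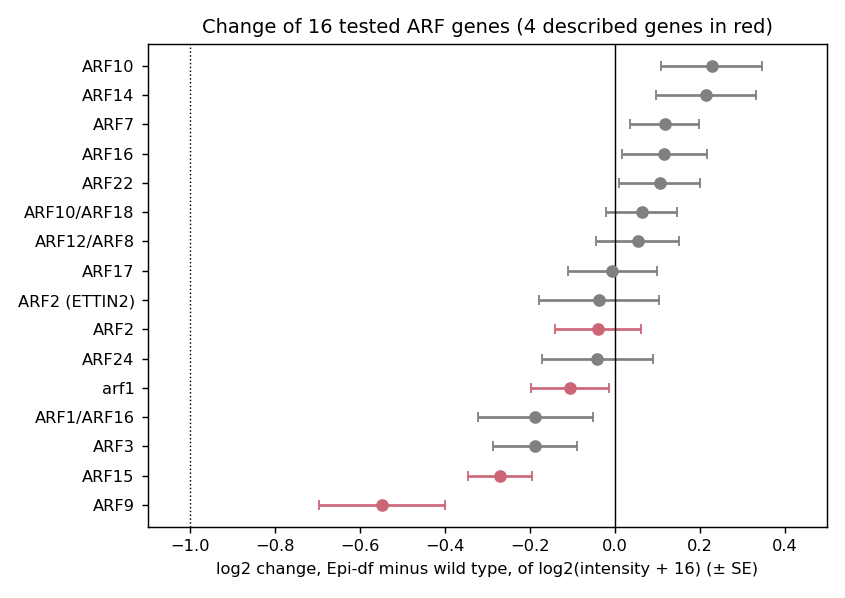
Log2 change (Epi-df minus wild type, of log2(intensity + 16)) with its SE for the 16 ARF genes that passed the filter, the 4 described genes in red and the dotted line at a change of 2-fold. ARF9 and ARF15 have the lowest changes, at -0.55 and -0.27, and no gene reaches the 2-fold line.

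The partners of ARFs were counted next, with the probe set of highest mean standing for each gene. Aux/IAA genes code for repressors that bind many ARFs. Of the 23 tested, 16 were lower and 7 higher, with a median log2 change of -0.08. Over all tested probe sets 46.1% were lower and the median was 0.01. None of the 23 was called, against 0.608% of all tested probe sets. Groups stayed apart in 9 of the 23, 7 lower and 2 higher, against 19.6% of all tested probe sets, 9.76% lower. IAA6 had the lowest change, from 1628 ± 184 to 909.0 ± 199 (-0.85 ± 0.17, limma adjusted p = 0.0564). IAA7 had the highest, from 110.5 ± 8.05 to 156.3 ± 22.8 (0.44 ± 0.12, limma adjusted p = 0.121). IAA17, named for the highest mean of the list, was at 12794 ± 501 and 11706 ± 49.1 (-0.13 ± 0.06, limma adjusted p = 0.370). No gene named TIR1 or AFB was found in the gene table, so the receptors are not analysed here.

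Genes that set the auxin level differed among themselves. PIN5A, of the family of auxin efflux carriers, fell from 1220 ± 22.2 to 280.1 ± 31.9 (-2.07 ± 0.10, limma adjusted p = 0.000385). It was the 1 called gene of all auxin lists, against 0.608% of all tested probe sets. The tested genes of these lists were 16 ARF, 23 Aux/IAA, 8 GH3, 2 transport, 2 synthesis, 1 SAUR and 13 small RNA genes. PIN3A, the other tested transport gene, was at 339.5 ± 56.9 and 329.7 ± 11.5. FIB, also named TAR2, codes for an enzyme of the first step of auxin synthesis from tryptophan and had 532.4 ± 50.5 and 354.6 ± 52.5 (-0.57 ± 0.12, limma adjusted p = 0.0746). YUCCA1, of the step that follows, was at 90.2 ± 3.58 and 97.1 ± 3.46 (0.09 ± 0.07, limma adjusted p = 0.645).

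Genes that ARFs are known to regulate also gave no common direction. Of the 8 tested GH3 genes, whose enzymes couple hormones to amino acids, 5 were higher and 3 lower, with a median log2 change of 0.05. None was called, where 0.608% of all tested probe sets were. Groups stayed apart in 5 of the 8, 2 higher and 3 lower, against 19.6% of all tested probe sets. GH3.1 had the highest change (1.17 ± 0.27, limma adjusted p = 0.0839), from a level of 63.1 ± 27.0 in wild type that lies under the filter level of 80.5. GH3.5, also named JAR1 and known for coupling jasmonate rather than auxin, had the lowest (-0.48 ± 0.12, limma adjusted p = 0.102) and the highest mean. SAUR39, of the family of small auxin up RNAs, differed by -0.20 ± 0.18 (limma adjusted p = 0.701).

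Small RNA genes were measured through 13 tested genes, 8 higher and 5 lower, with a median log2 change of 0.05. The list was formed by name and also holds Argonaute and Dicer genes of pathways other than the one that limits ETTIN-type transcripts, such as AGO4A and AGO4B. None of the 13 was called, against 0.608% of all tested probe sets, and in none did the groups stay apart, against 19.6%. SHL2, the rice RNA-dependent polymerase of the ETTIN-limiting pathway, was at 0.11 ± 0.09, and SGS3, its partner, at -0.07 ± 0.12. SHO1, which codes for the Dicer enzyme DCL4, was at -0.14 ± 0.09. The Argonaute gene AGO1A had the highest mean (0.05 ± 0.11), AGO1C the highest change (0.18 ± 0.11) and AGO18 the lowest (-0.26 ± 0.18).

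**Figure D4:**
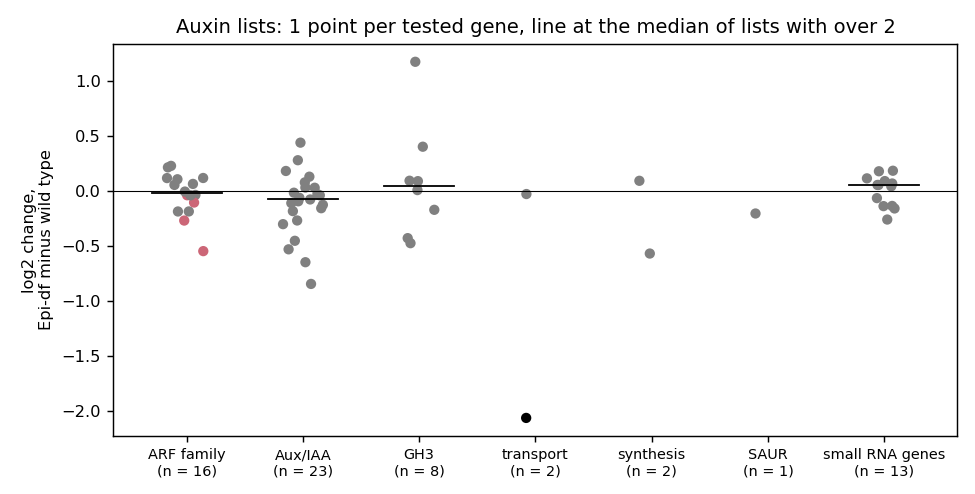
Log2 change (Epi-df minus wild type, of log2(intensity + 16)) of each tested gene in 7 lists around auxin, 1 point per gene, the 4 described ARF genes in red and the called gene, PIN5A, in black. Lines mark the medians of the 4 lists with over 2 tested genes, at -0.02 for the ARF family, -0.08 for Aux/IAA genes and 0.05 for both GH3 and small RNA genes.

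To place the array pattern of each gene, its log2 values were set against those of 2663 tested probe sets with an informatively named gene by Pearson's r over the 6 arrays. This is a description of likeness over both lines together, with no test, and with so few arrays high values are found for many genes. A value of at least 0.9 was reached by 97 of these probe sets for ARF9, 71 for ARF15, 6 for arf1 and 4 for ARF2. Genes with a difference between the lines share that difference, which can raise r for ARF9 and ARF15. How far it did so over these probe sets was not tested.

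ARF9 was most like JAZ10 and JAZ13, which code for repressors of the jasmonate response, each with r = 0.998. JAZ10 had intensities of 10490.2, 8386 and 4689.5 in wild type and 3383, 1737 and 815.3 in Epi-df. JAZ13 had 3024, 2251 and 1095 in wild type and 776.6, 241.6 and 68.7 in Epi-df. Both JAZ genes spanned a far wider range than ARF9 with the arrays in the same order. Their log2 changes of -2.13 ± 0.50 and -2.93 ± 0.75 did not pass the test either (limma adjusted p = 0.0891 and 0.112). Hox21, a homeobox gene of the HD-Zip family, came next for ARF9 (r = 0.988, log2 change -0.23 ± 0.10). When each array was taken as its deviation from the mean of its line, r with ARF9 was 0.994 for JAZ10, 0.994 for JAZ13 and 0.975 for Hox21.

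ARF15 was most like GDH1, a glutamate dehydrogenase gene (r = 0.994), with 1381, 1174 and 1366 in wild type and 998.5, 926 and 747.1 in Epi-df. TBL6 (r = 0.993), of a family of cell wall acetyltransferases, was lower in Epi-df at an adjusted p under 0.05 but by less than 2-fold (-0.58 ± 0.10, limma adjusted p = 0.0322). With no fold threshold, 1.8% of tested probe sets lay under that adjusted p. MADS55, a flowering regulator (r = 0.986), was the 1 called gene among these likenesses and fell from 508.0 ± 71.6 to 176.4 ± 35.9 (-1.45 ± 0.16, limma adjusted p = 0.00739). As deviations from the mean of each line, r with ARF15 was 0.991 for GDH1, 0.966 for TBL6 and 0.940 for MADS55. In all 3, as in ARF15, the lines did not overlap, which the choice by r over both lines together favours. Over all tested probe sets, 0.608% were called and the groups did not overlap in 19.6%.

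For arf1 and ARF2 the most alike genes overlapped between the lines, as arf1 and ARF2 did themselves, which the same choice favours. Those of arf1 were the calcium-dependent protein kinase gene CPK5 (r = 0.967), the zinc finger gene SAP7 (r = 0.967) and the autophagy gene ATG8B (r = 0.927), with log2 changes of -0.18, -0.13 and -0.12. Those of ARF2 were DI19-3 (r = 0.951), the protein phosphatase gene PP2C54 (r = 0.934) and the Aux/IAA gene IAA19 (r = 0.920), with changes of -0.11, -0.03 and -0.04. IAA19 had intensities from 101.0 to 111.0 in wild type and from 96.9 to 114.1 in Epi-df.

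**Figure D5:**
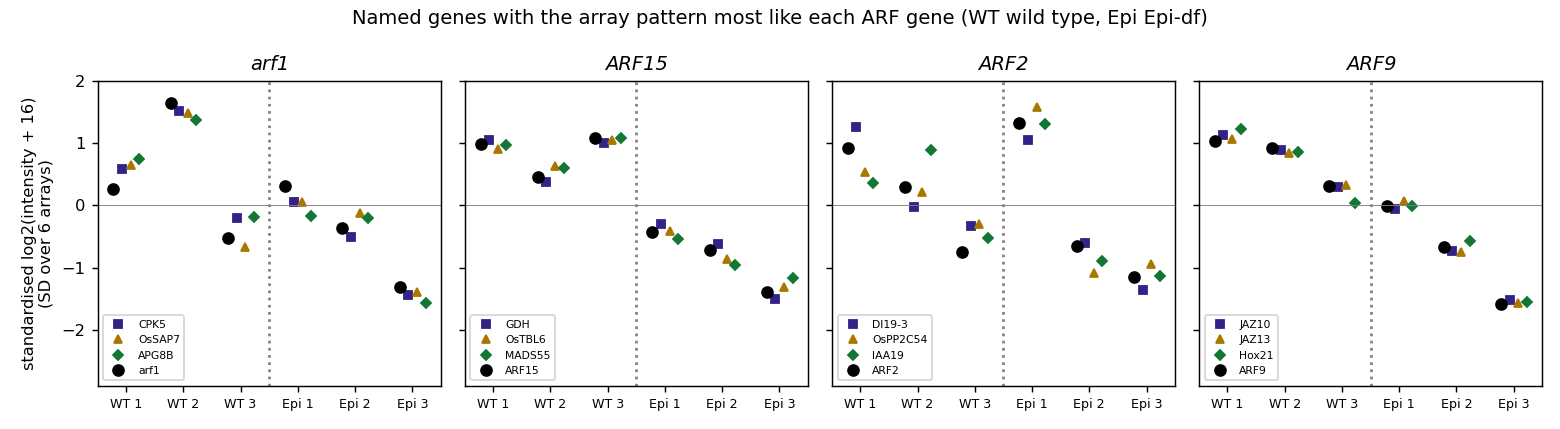
Log2(intensity + 16) of each ARF gene (black circles) and of the 3 named genes most like it, standardised to mean 0 and SD 1 over the 6 arrays, with wild type arrays left and Epi-df arrays right of the dotted line. For ARF9 and ARF15 all Epi-df points lie below the wild type points of the same gene, and for arf1 and ARF2 they mix.

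Among themselves, the 4 genes were most alike for ARF15 and ARF9 (r = 0.896 over 6 arrays) and for arf1 and ARF9 (r = 0.791), and least for ARF15 and ARF2 (r = 0.350). These values share the arrays and the difference between the lines, and are given as a description.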

How the data were processed

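Intensities of the probe sets, on a linear scale, are those the authors deposited. The submitters' processing notes name MAS5, and its version and scaling target are not given in the sources used here. No detection calls were used. The table held 57381 probe sets, 123 of them controls, which were left out. With a pseudocount of 16, log2 values were fitted by limma 3.58.1 (R 4.3.3, trended eBayes, two-sided tests, no replicate block), after leaving out probe sets whose mean log2 value lay under the 40th percentile (an intensity of 80.5), which left 34355. Calls needed a 2-fold or larger change and 0.05 as the limit of the Benjamini-Hochberg adjusted p, as the series' design has it. Log2 changes understate those of dim probe sets, and ± after them is the SE. The number of arrays limits the precision. The limma p-values weigh each difference against a variance estimated from these 3 and 3 samples together with a trend over all tested probe sets.

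Names came from the platform annotation, joined to a RefSeq gene table (assembly ASM3414082v1): 22436 probe sets had 1 gene, 95 had several and 34727 were not listed, and all 17905 genes were matched. Members and lists were chosen with earlier results of these data known. Lists were formed by gene name. LAX1, LAX2 and CHARK (also CRL4) share a name with a list and were removed, which left the crown root list empty. A list of ADP-ribosylation factors was not formed. Protein lengths and motifs were not analysed here. The text names, of each list, the gene with the highest mean, the largest rise and fall and every called gene, and for each ARF gene the 3 most alike genes. ARF3, ARF13, ARF14, OsETTIN2, SHL2, SGS3 and SHO1 were chosen with their values known. The fitting was tested on simulated data. Alternatives were another pseudocount, filter, scaling, spread model, array weights, a replicate block, Storey's q, other fold thresholds, other probe sets, an exact permutation test and leaving out each array.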

Additional observations from a re-analysis of the deposited data

How the results depend on the processing

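None of the 4 ARF genes was called under any alternative run. ARF9 stayed between -0.55 and -0.54 under 12 alternatives with all arrays and between -0.68 and -0.40 with 1 array left out, with limma adjusted p from 0.0278 to 0.393. The lowest of these was with the replicate number as a block (replicate block), the 1 setting in which the adjusted p of ARF9 lay under 0.05, still below 2-fold at -0.55. ARF15 stayed between -0.30 and -0.23, and arf1 between -0.16 and -0.04, with -0.19 for the other probe set of arf1. ARF2 lay between -0.13 and 0.02, and its sign turned when Epi-df replicate 3 (0.022) or wild type replicate 1 (0.0084) was left out. The exact permutation test gave p = 0.1 for ARF9 and ARF15, the smallest it can give, 0.5 for arf1 and 0.8 for ARF2. The count of called probe sets, 209, was 319 with the replicate block, 617 with no fold threshold and 496 at 1.5-fold, and 108 to 250 with 1 array left out. Deviations of same-numbered arrays from the means of their lines correlated with r = 0.139, 0.336 and -0.05. The labels do not say whether a number pairs the samples, and these values cannot settle it. The 1 called gene of the auxin lists, PIN5A, was called under every alternative run, and GH3.1 was a second one without wild type replicate 3 (1 to 2 genes with 1 array left out). The cause of these shifts was not tested.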
